A study of Mus musculus with 159 samples.

Results

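Col4a1 and Col4a2 encode the type IV collagen chains of basement membranes, and their rows were taken by symbol as 2 of the 607 genes in a table of normalised values from 159 tissue segments of 4 mouse livers. Both genes had a value in every segment. The livers came from wild-type C57BL/6 mice given carbon tetrachloride (CCl4), a hepatotoxin that causes liver fibrosis, for 6 weeks. Fixed sections were stained for DESMIN, MARCO and IBA1, regions of interest (ROIs) were picked by eye for high or low MARCO signal, and probe counts were read from masked segments of each ROI on the NanoString GeoMx platform. The labels mark livers 1 and 3 as treated CCl4 and livers 2 and 4 as control, while the study's methods give CCl4 to all 4 mice, of which 2 received MARCO+ bone marrow-derived macrophages and 2 received saline. No label tied a liver to the macrophages or to saline.

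There were 41 Des+ segments (DESMIN+ MARCO- IBA1-, taken as hepatic stellate cells, HSC), 45 Marco+IBA+ segments (MARCO+ macrophages), 24 Marco-IBA+ segments (MARCO- macrophages) and 49 Else segments (negative for all 3 stains). ROIs of high and low MARCO signal are called MarcoHi and MarcoLo. A liver is 1 mouse, and the segments of a liver are not independent, so the tests of the comparisons were made over the 4 livers, with a model on single segments only as an alternative. A segment holds many cells, so fewer cells of a type and less RNA per cell cannot be told apart. The 607 genes are a subset that the authors chose for expression in HSC and not a sample of all genes.

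Type IV collagen does not form fibrils. Its chains assemble into a sheet-like network that carries laminins, nidogen and perlecan, and together these make the basement membrane under epithelia and around vessels, muscle and nerve. The liver sinusoid has only a loose matrix with type IV collagen between endothelium and hepatocytes, and HSC and sinusoidal endothelial cells are known sources of it. In fibrosis this matrix becomes denser, a change known as capillarisation, beside the fibrillar collagens I and III that form the scar.

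Col4a1 and Col4a2 lie head to head on mouse chromosome 8 and share their start region, which is why both promoter windows are shown. In the GRCm38.p6 assembly Col4a1 runs on the minus strand at chr8:11198423-11312889 and Col4a2 on the plus strand at chr8:11312805-11449287, so that the annotated genes overlap by 85 bases. Each window below is the RefSeq sequence from 250 bases before the start site to 50 bases after it, 5′ to 3′ on the strand of its gene, at chr8:11312777-11313076 for Col4a1 and chr8:11312555-11312854 for Col4a2. Capitals mark GC boxes (GGGCGG) and CCAAT boxes (CCAAT), searched on both strands, so that a box on the opposite strand reads CCGCCC or ATTGG.
Col4a1: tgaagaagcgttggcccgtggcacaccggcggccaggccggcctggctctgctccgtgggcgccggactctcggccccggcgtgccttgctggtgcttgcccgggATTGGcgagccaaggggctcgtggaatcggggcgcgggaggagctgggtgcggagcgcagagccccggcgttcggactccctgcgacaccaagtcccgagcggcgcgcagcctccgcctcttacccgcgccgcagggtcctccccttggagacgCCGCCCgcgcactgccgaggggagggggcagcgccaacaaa
Col4a2: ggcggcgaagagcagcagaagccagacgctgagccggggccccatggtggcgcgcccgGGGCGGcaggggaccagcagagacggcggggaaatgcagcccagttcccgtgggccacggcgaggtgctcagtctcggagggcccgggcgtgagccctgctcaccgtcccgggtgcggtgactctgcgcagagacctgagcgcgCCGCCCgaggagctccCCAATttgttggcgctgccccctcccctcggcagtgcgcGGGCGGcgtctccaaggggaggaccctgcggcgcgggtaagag
The windows share 78 bases, read in opposite directions, and their start sites lie 21 bases apart. Both were rich in G and C, at 74% for Col4a1 and 73.7% for Col4a2. A single GC box at chr8:11312812-11312817 lay in the shared stretch, and Col4a2 had 2 more. Each window had 1 CCAAT box, and neither had the letters TATAAA. Of 32817 such windows of mouse genes, 35.6% held GGGCGG, 37.4% held CCAAT and 13.6% held TATAAA. The start site used for the Col4a1 window lies inside the annotated gene, whose annotated end is further upstream.

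Both chains were highest in Des+ segments. Values here are counts scaled by the authors to a common upper quartile, and because each gene was read by its own probe, levels are compared between segments and not between genes. In Des+ segments Col4a1 ranged from 8.69 to 113.0, with a median of 45.6. In Else segments it ranged only from 9.56 to 20.4, with a median of 13.0. The macrophage segments lay between these, at a median of 18.1 (5.21 to 35.3) in Marco+IBA+ and 17.4 (6.52 to 52.1) in Marco-IBA+ segments. Thus 37 of 41 Des+ segments (90.2%) exceeded the highest of the Else segments.

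Col4a2 had the same order at the top. Its Des+ segments ranged from 14.9 to 88.7 with a median of 34.8, and its Else segments from 8.36 to 20.0 with a median of 12.9. The median was 13.7 (4.35 to 39.1) in Marco+IBA+ and 13.0 (5.21 to 52.1) in Marco-IBA+ segments. Of the Des+ segments, 36 of 41 (87.8%) lay above the highest Else segment. The share of all genes set apart in this way was not worked out.

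**Figure D1:**
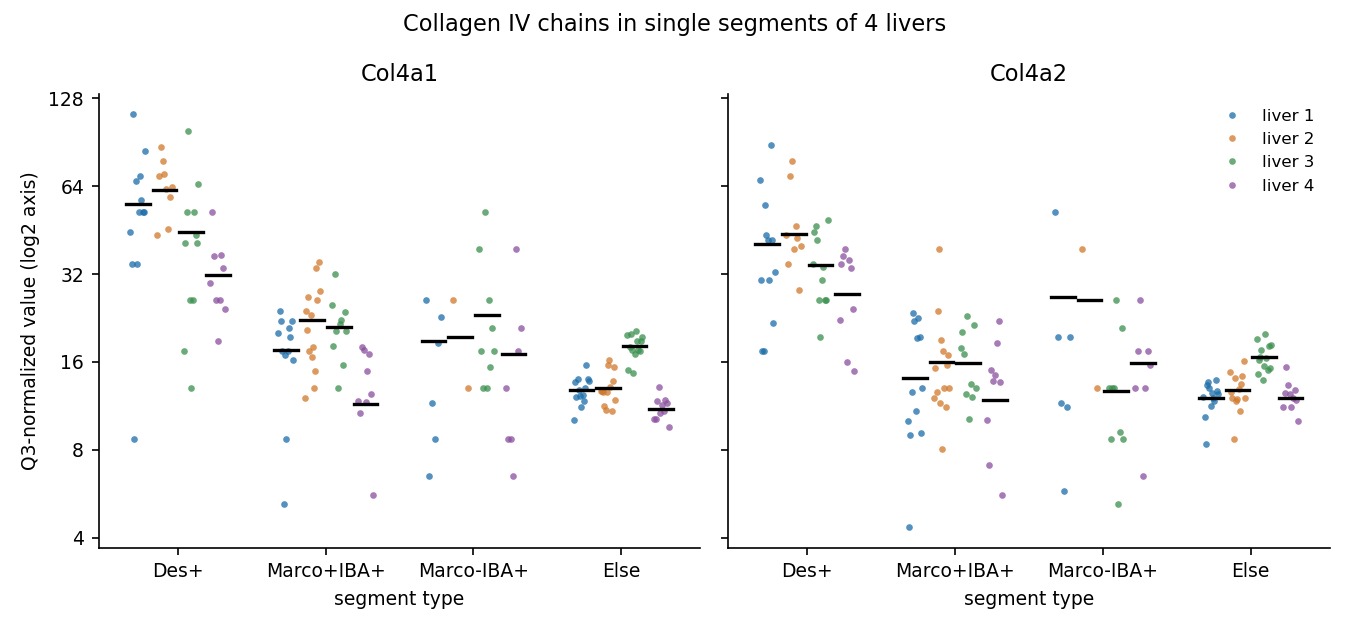
Normalised values of Col4a1 and Col4a2 in single segments (points, log2 axis) by segment type and liver, with black bars for the level of each liver. Des+ segments reach 113.0 for Col4a1 and 88.7 for Col4a2, while no Else segment is above 20.4 and 20.0.

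The depth behind these values differed between segment types. Over the 607 genes the recovered counts ran from 1448 to 16715 in Des+, 3106 to 27341 in Marco+IBA+, 1065 to 4457 in Marco-IBA+ and 75571 to 448875 in Else segments. The median Col4a1 value thus stood for 13 counts in Des+, 12 in Marco+IBA+, 2 in Marco-IBA+ and 196 in Else segments. The lowest count in the table is 1, which may stand for an undetected gene. In Marco-IBA+ segments Col4a1 was at this floor in 8 of 24 segments and Col4a2 in 10 of 24, and 1 count there was worth a median value of 8.69. Levels of Marco-IBA+ segments are therefore coarse, and 17 of 24 (Col4a1) and 21 of 24 (Col4a2) rest on 3 counts or fewer.

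Des+ segments had the highest level of both chains in every liver. On the log2(value + 1) scale, with the ROI classes of a liver weighted equally, Col4a1 in Des+ segments was 5.82, 5.98, 5.51 and 5.03 in livers 1 to 4, against 3.79, 3.81, 4.26 and 3.59 in Else segments. Every Des+ level was above every Else level. Col4a2 was 5.38, 5.49, 5.14 and 4.82 in Des+ and 3.71, 3.79, 4.14 and 3.71 in Else segments, again without overlap. The mean over livers was 5.58 ± 0.42 (SD, n = 4) for Col4a1 in Des+ segments, 4.22 ± 0.41 in Marco+IBA+, 4.36 ± 0.17 in Marco-IBA+ and 3.86 ± 0.28 in Else segments. For Col4a2 these means were 5.21 ± 0.29, 3.94 ± 0.19, 4.35 ± 0.51 and 3.84 ± 0.21. In Marco-IBA+ segments liver 2 had MarcoLo ROIs only. There 1 MarcoHi segment of liver 1 (Col4a2 52.1, 6 counts) had the weight of its 5 MarcoLo segments. The 4 Des+ levels overlapped with those of no other segment type for either gene, whereas the levels of the other 3 types overlapped among themselves.

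The difference between Des+ and Else segments was tested with limma on 1 level per liver and segment type, with liver as a block and p-values adjusted over all 607 genes. Col4a1 was higher in Des+ than in Else segments by 1.72 on the log2 scale (SE 0.16, adjusted p = 2.5e-09), a 3.30-fold difference, and in 4 of 4 livers. Its 95% confidence interval was 1.39 to 2.05. Col4a2 was higher by 1.37 (SE 0.18, adjusted p = 6.6e-07), or 2.58-fold, with an interval from 1.00 to 1.74. Of all genes, 36.6% were higher and 28.3% lower in Des+ than in Else segments, so that a call alone is not unusual. The median gene differed by 0.04. When each segment was re-centred on its own median this median fell by 0.30, and the differences of the chains remained past the threshold.

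Within single ROIs the same comparison pairs segments of 1 piece of tissue. Col4a1 was higher in the Des+ than in the Else segment in 38 of 41 ROIs, with a median log2 difference of 1.67. Col4a2 was higher in 41 of 41, with a median of 1.37. ROIs of a liver share the mouse and these counts carry no test.

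Both chains were also higher in Des+ than in macrophage segments. Against Marco+IBA+ segments the log2 difference was 1.37 for Col4a1 (limma, adjusted p = 1.8e-07) and 1.27 for Col4a2 (adjusted p = 2.4e-06), beside 33.8% of genes higher and 18.3% lower. Against Marco-IBA+ segments it was 1.22 for Col4a1 (adjusted p = 1.7e-06) and 0.85 for Col4a2 (adjusted p = 5.6e-04), beside 18.1% higher and 27% lower. Every liver had the higher level in Des+ segments in these 4 differences.

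**Figure D2:**
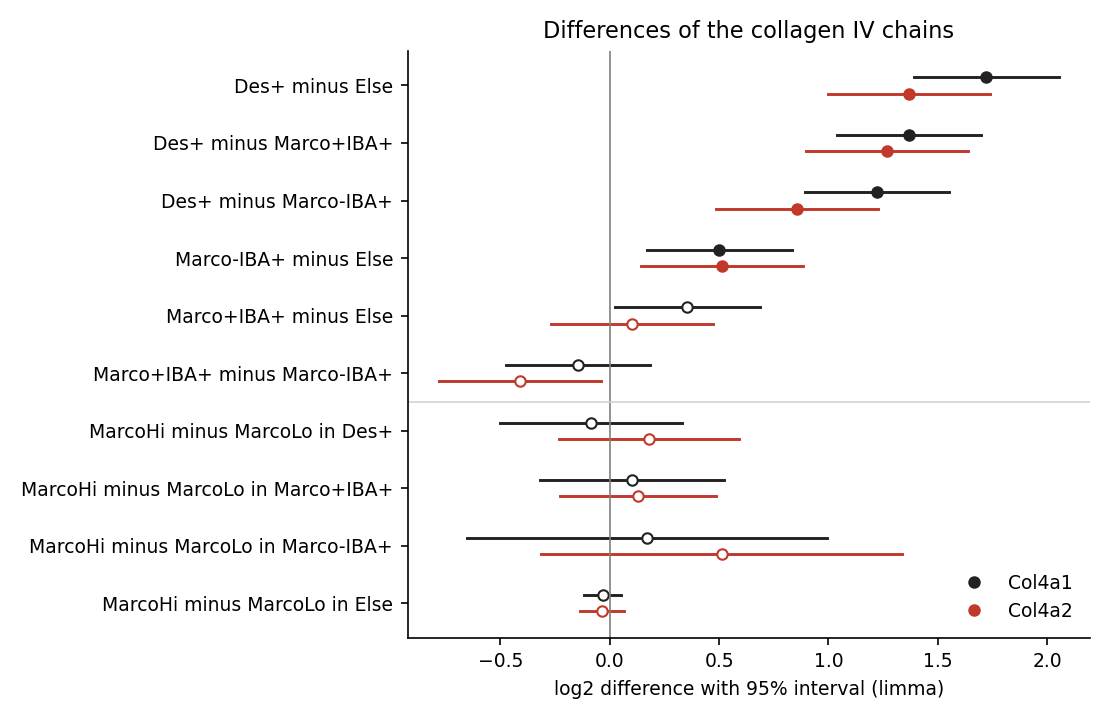
Log2 differences of Col4a1 and Col4a2 between segment types, (upper part) and between ROI classes (lower part), with 95% confidence intervals from limma and filled points where the adjusted p is under 0.05. The 3 comparisons with Des+ segments lie above 0 for both genes, from 0.85 to 1.72.

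Differences among the other 3 segment types were smaller. Col4a1 in Marco+IBA+ segments was 0.35 above Else segments (limma, adjusted p = 0.083), and Col4a2 0.10 above (adjusted p = 0.70), where 19.1% of genes were higher and 20.6% lower. The Col4a1 difference passed the threshold with the ROI as a block (0.34, limma adjusted p = 0.0094), in edgeR (adjusted p = 1.6e-04), in DESeq2 (0.0015) and in the mixed model (0.0034). Marco-IBA+ segments were 0.50 above Else segments for Col4a1 (limma, adjusted p = 0.0078) and 0.51 for Col4a2 (limma, adjusted p = 0.013). For Col4a2, 3 of 4 livers were higher, and liver 3 differed by -0.36. In that comparison 73.1% of all genes passed the threshold and the median gene was 0.35 higher, so that these 2 differences were close to the shift of the whole table. They were also lost with edgeR and DESeq2 on recovered counts, where Col4a1 differed by 0.12 and 0.17 and Col4a2 by -0.10 and -0.04. Between the macrophage segments, where 45.1% of genes passed, Col4a1 differed by -0.15 (adjusted p = 0.47) and Col4a2 by -0.41 (adjusted p = 0.063), Marco+IBA+ minus Marco-IBA+. The sign of both turned with edgeR and DESeq2.

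The labels of the segments were compared with marker genes. All 12 listed HSC markers were analysed, and their summed value was 550 to 684 in Des+ segments of the 4 livers, 194 to 233 in Marco+IBA+, 244 to 326 in Marco-IBA+ and 97.1 to 129 in Else segments. Of these, 11 were higher in Des+ than in Else segments, beside 36.6% of all genes. The exception was Des, the gene of the protein used for the mask, at 5.94 to 10.1 in Des+ and 5.24 to 6.50 in Else segments (log2 difference 0.38, limma adjusted p = 0.054). Against Marco-IBA+ segments only 8 of the 12 markers were higher in Des+ segments, beside 18.1% of all genes. Des itself was lower in Des+ than in Marco-IBA+ segments (-0.45, limma adjusted p = 0.035), at 8.01 to 14.99 in the latter. The labels of these segment types were thus not borne out by Des, and how far they separate HSC was not tested. Marco, the only one of 12 macrophage markers analysed here, was 169 to 958 in Marco+IBA+ and 8.70 to 27.3 in Else segments. Of the 12 markers listed for endothelial cells, another source of type IV collagen, 0 were analysed here, and the part of these cells in the levels was not tested. Smooth muscle cells, which also contain desmin, had 3 of 6 markers analysed (Tagln, Smtn and Des). Their sum was 32.5 to 50.7 in Des+, 20.0 to 23.8 in Marco+IBA+, 33.2 to 41.5 in Marco-IBA+ and 17.4 to 22.6 in Else segments. The part of smooth muscle cells in the Col4a1 and Col4a2 levels was not tested.

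The other basement membrane genes that were analysed were higher in Des+ than in Else segments too. Only 7 of 34 listed genes were analysed (Sparc, Lamb1, Fbln5, Nid1, Lama1, Lamc1 and Lama2). The authors kept genes for expression in HSC, a choice that favours higher levels in Des+ segments. All 7 were higher in Des+ than in Else segments, beside 36.6% of all genes. Their median log2 difference was 1.18, beside 0.04 for all genes. Sparc, a matricellular protein that binds type IV collagen, differed by 2.22, and the laminin chain Lamb1 by 1.44. Fbln5, an elastic fibre protein, differed by 1.30, nidogen (Nid1), which links laminin to type IV collagen, by 1.18, and the laminin chain Lama1 by 1.06. Against Marco+IBA+ segments 7 of 7 were higher, with a median of 1.09 beside 0.07 for all genes, of which 33.8% were higher. Against Marco-IBA+ segments 4 of 7 were higher (Sparc 1.35, Fbln5 0.65, Lamb1 0.59 and Nid1 0.54), with a median of 0.54 beside -0.11 for all genes, of which 18.1% were higher.

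Genes for the synthesis and export of type IV collagen lay on both sides. Of 6 analysed, 3 were higher and 3 lower in Des+ than in Else segments, with a median of -0.11. The list is too small to set these counts apart from the shares over all genes (36.6% higher and 28.3% lower). Serpinh1, the collagen chaperone HSP47, was higher by 1.06, while P4hb, a subunit of the prolyl hydroxylase that also has other clients, differed by -1.19. In the comparison with Marco+IBA+ segments Serpinh1 was higher by 0.91 and Colgalt1, which attaches galactose to collagen, differed by -1.42.

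Of 4 receptor genes, 2 were higher in Des+ than in Else segments (the integrin chain Itga1 and the collagen receptor kinase Ddr2), 1 was lower (dystroglycan, Dag1) and the integrin chain Itgb1 did not pass. Of 3 genes for breakdown, Mmp2, the gelatinase that cleaves type IV collagen, was higher by 1.11 and Timp2, its inhibitor, passed as well, while Mmp14 did not. These lists too are too small to set their counts apart from the shares over all genes (36.6% higher and 28.3% lower).

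The fibrillar and other collagens were higher in Des+ segments as well. All 9 other collagen chains were higher in Des+ than in Else segments, by 0.66 to 2.99, beside 36.6% of all genes higher and 28.3% lower. These chains too are among the genes that the authors chose for expression in HSC. Col3a1 was higher by 2.99 (SE 0.15), Col1a1 by 2.32 (SE 0.15) and Col1a2 by 1.88 (SE 0.17), beside 1.72 for Col4a1 and 1.37 for Col4a2. Each gene has its own probe, and whether these differences differ from each other was not tested.

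**Figure D3:**
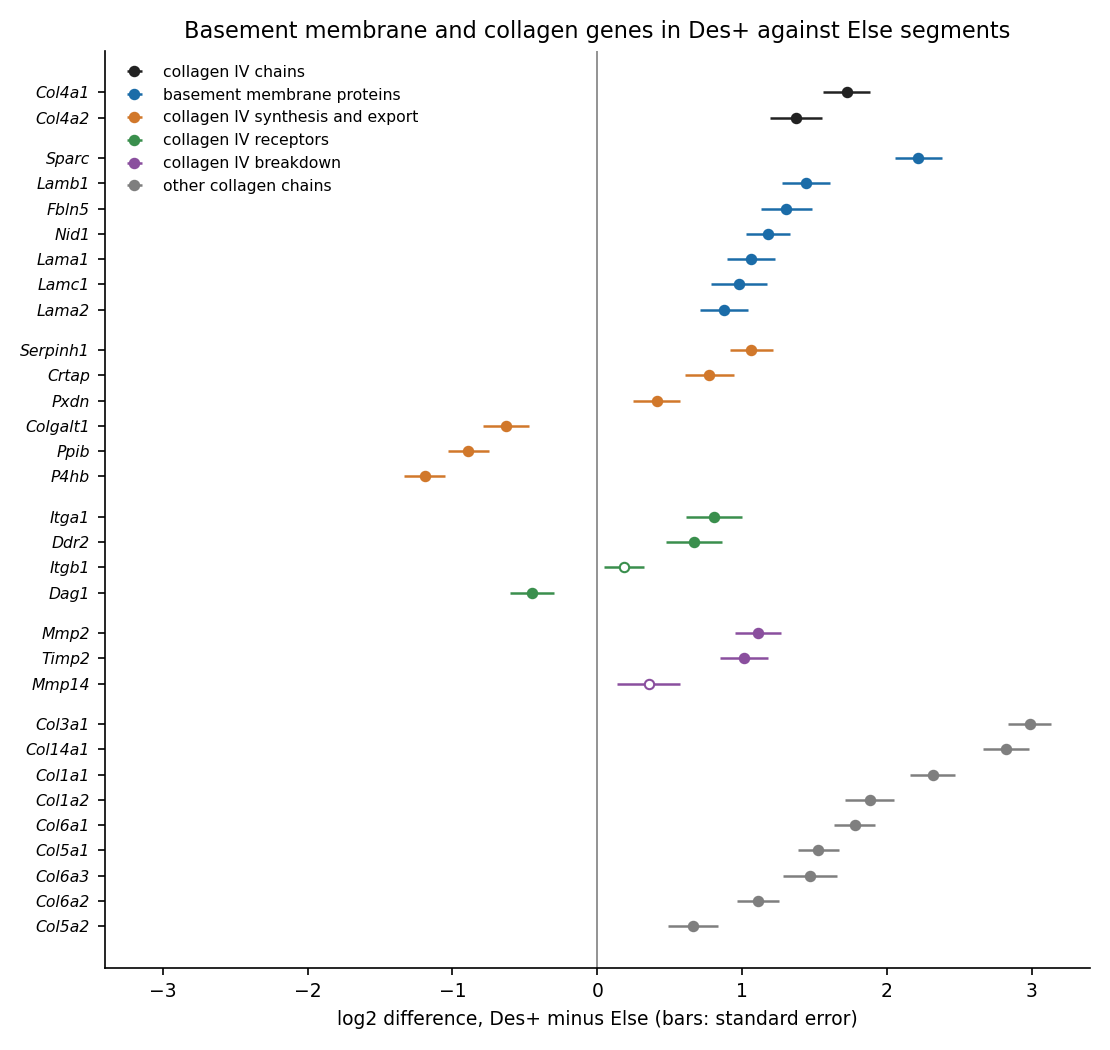
Log2 differences between Des+ and Else segments for Col4a1 and Col4a2 and for the genes of each list (points, bars for the standard error, limma over 4 livers, open where the threshold was missed). The 7 basement membrane genes and 9 other collagens are all above 0, while the synthesis genes fall on both sides.

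Across the 16 levels (4 livers by 4 segment types, after removal of the mean of each liver) the genes most like Col4a1 were Col14a1 and Reln (Pearson r = 0.97 each), Col1a1, Igfbp3 and Sod3 (0.96 each). Those most like Col4a2 were Nid1 (0.95), Col6a1 and Abcc9 (0.93 each), Prelp and Col3a1 (0.92 each). Col4a2 came 24th for Col4a1 (r = 0.90), and Col4a1 came 10th for Col4a2. These points share libraries and are few, and the values are a description.

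The ratio of the chains was then compared between segment types within livers. Col4a1 over Col4a2 was higher in Des+ than in Else segments by 0.35 ± 0.09 on the log2 scale (SD, n = 4 livers), in 4 of 4 livers. It was higher in Marco+IBA+ than in Else segments by 0.25 ± 0.15, also in 4 of 4. An exact two-sided permutation of the signs over 4 livers has 16 assignments and cannot give a p below 0.125, which both reached, with an adjusted p of 0.375 over the 6 pairs of segment types. Between Des+ and Marco+IBA+ segments the ratio differed by 0.10 ± 0.12, and ratios with Marco-IBA+ segments had SDs from 0.58 to 0.66. The threshold could not be passed by any of these 6 differences.

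Within a segment type the chains were compared over single segments on the log2 scale, after removal of the mean of each liver. Col4a1 and Col4a2 correlated with r = 0.44 over 49 Else segments and with r = 0.37 over 41 Des+ segments. In Marco+IBA+ segments r was -0.01 (45 segments) and in Marco-IBA+ segments 0.23 (24 segments). In Else segments both genes also correlated weakly with the total count (0.28 for Col4a1, 0.33 for Col4a2), and segments of a liver share the mouse. The variance of Col4a1 within liver and ROI class was 2.04 times that of counting error in Des+ segments and 2.23 times in Else segments. For Col4a2 it was 1.45 and 2.69 times. In Marco+IBA+ segments these ratios were 1.03 and 1.39, and in Marco-IBA+ segments 0.79 and 0.45. Many Marco-IBA+ values sit at the floor of 1 count, so the ratios there cannot show whether variance beyond counting exists.

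Liver 3 stood apart in Else segments. Its 13 Else segments had Col4a1 values of 14.7 or more, and 11 of them were above the highest of the 36 Else segments of the other livers (16.2). For Col4a2 the lowest was 13.9, and 8 of 13 were above the others' highest of 16.1. Both chains were thus highest in the same liver. On the log2 scale liver 3 also had the highest Else level of Col1a1 (3.16, next 3.00 in liver 1) and of Col1a2 (3.19, next 3.02 in liver 1). Col3a1 was highest in liver 1 (3.84, against 3.81 in liver 3). How many of all genes were highest in liver 3 was not counted, and the cause was not tested.

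**Figure D4:**
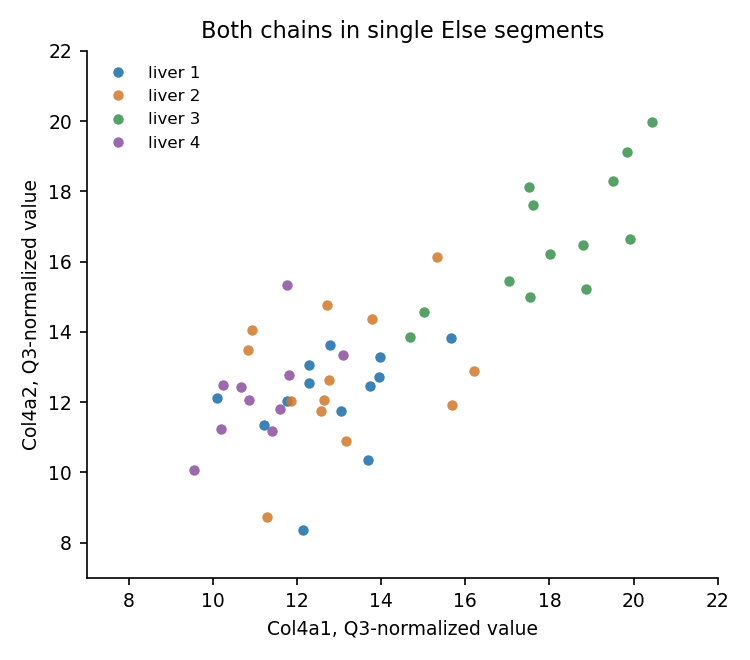
Col4a1 against Col4a2 values in the 49 Else segments, coloured by liver. Liver 3 lies at the upper right, with Col4a1 from 14.7 and Col4a2 from 13.9.

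The ROI classes asked whether the chains differed in tissue with more or less MARCO signal. In Des+ segments no difference beyond the error was detected. Col4a1 means in MarcoHi ROIs of livers 1 to 4 were 50.4, 68.5, 39.2 and 31.6, against 61.3, 55.9, 50.4 and 31.7 in MarcoLo ROIs. Col4a2 means were 38.5, 52.0, 34.9 and 30.8 in MarcoHi and 42.8, 36.9, 33.7 and 24.2 in MarcoLo ROIs. The ranges of the ROI classes overlapped for both genes. The log2 difference, MarcoHi minus MarcoLo, was -0.09 for Col4a1 (limma, adjusted p = 0.886) with a 95% interval from -0.50 to 0.33. For Col4a2 it was 0.18 (adjusted p = 0.724), with an interval from -0.23 to 0.59. Of all genes, 0.659% were higher and 3.79% lower in Des+ segments of MarcoHi ROIs.

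Other collagens were lower in the same segments. Of the 9 other collagen chains 6 were lower in Des+ segments of MarcoHi ROIs, beside 3.79% of all genes. The list median was -0.84, beside 0.02 for all genes. Col3a1 differed by -1.17 (limma, adjusted p = 8.6e-04), Col1a2 by -0.90 (adjusted p = 0.0063) and Col1a1 by -0.86 (adjusted p = 0.0088), and the 3 type VI chains by -0.94 to -0.75. Col14a1 (-0.37), Col5a1 (-0.31) and Col5a2 (0.09) did not pass. None of the 7 basement membrane genes passed in limma, 1 of them at an unadjusted p under 0.05, and 0 passed in edgeR. DESeq2 gave an adjusted p to only 1 of the 7, which did not pass. Fewer calls were made when a liver was left out, and such fits also have less power. Without liver 2 the 6 differences were larger (Col3a1 -1.49, Col1a1 -1.15). Without liver 4 they were smaller (Col3a1 -0.86, Col1a1 -0.57). In limma 0 of the 9 passed without liver 2 or without liver 4 (7 and 6 at an unadjusted p under 0.05), 1 without liver 3 and 4 without liver 1. Mmp2 was the only gene of the breakdown list that passed (-0.71, limma adjusted p = 0.038), and its call was lost without any 1 liver. Of the 9 collagens edgeR called 6, and DESeq2 1 of the 5 to which it gave an adjusted p.

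The type IV chains were also set against the type I chains as ratios. These restate the ROI class differences given above and are not separate evidence. The genes were chosen with earlier results of these data known. The log2 ratio of Col4a1 over Col1a1 in Des+ segments was higher in MarcoHi than in MarcoLo ROIs by 0.77 ± 0.47 (SD, n = 4), and that of Col4a2 over Col1a2 by 1.08 ± 0.32, in 4 of 4 livers each. Both reached p = 0.125 by exact permutation of the signs, two-sided, the smallest value that 4 livers allow, and the adjusted p over both ratios was 0.125. The sum of the HSC markers was lower too, at 403 to 567 in Des+ segments of MarcoHi ROIs and 688 to 811 in those of MarcoLo ROIs. Of the 12 markers, only 3 (Dcn, Ecm1 and Reln) passed as lower, beside 3.79% of all genes. The rest did not pass, and the median log2 difference of the 12 was -0.37. The median total count was 3089 in MarcoHi and 4602.5 in MarcoLo ROIs. The part of the marker levels and of depth in these ratios was not tested.

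**Figure D5:**
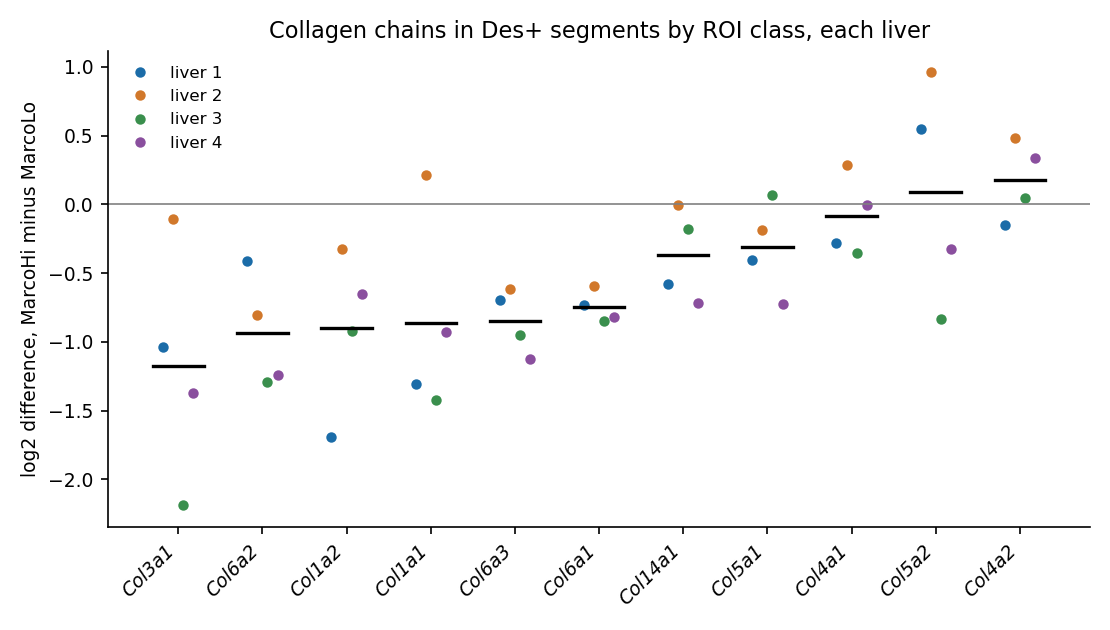
MarcoHi minus MarcoLo log2 differences in Des+ segments for all 11 collagen chains, with a point for each liver and a bar for the mean of the 4. The points of Col4a1 and Col4a2 lie on both sides of 0, while the 4 points of Col3a1 and of Col1a2 lie below it and 3 of the 4 of Col1a1 do.

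The other segment types gave no call for either chain by ROI class. In Else segments, the deepest, the differences were -0.03 for both Col4a1 (limma, adjusted p = 0.737, interval -0.12 to 0.05) and Col4a2 (adjusted p = 0.795, interval -0.14 to 0.07). Of all genes, 5.11% passed in Else segments, among them Col3a1 (-0.43), Col1a1 (-0.38) and Col14a1 (-0.22), which was singled out after its value was seen. All 3 missed the threshold without the liver block (limma adjusted p = 0.060, 0.340 and 0.755), and Col14a1 also in DESeq2 (0.274), without liver 1 (0.086) and without liver 4 (0.078). In Marco+IBA+ segments, where 0.494% of genes passed, the differences were 0.10 for Col4a1 and 0.13 for Col4a2 (adjusted p = 0.842 and 0.775, limma). In Marco-IBA+ segments they were 0.17 and 0.51 (adjusted p = 0.877 and 0.676), and 0% of genes passed in limma, with 58 at an unadjusted p under 0.05, 1 in edgeR and 0 in DESeq2. Liver 2 had no Marco-IBA+ segment in a MarcoHi ROI and liver 1 had 1.

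The livers labelled treated CCl4 were compared with those labelled control, which is 2 against 2. Neither chain passed in any segment type. In Des+ segments Col4a1 differed by 0.16 (limma, adjusted p = 0.918) and Col4a2 by 0.10 (adjusted p = 0.947). In Else segments the differences were 0.32 (adjusted p = 0.257) and 0.18 (adjusted p = 0.433), and liver 3 is one of the treated CCl4 livers. In Marco+IBA+ segments they were 0.25 and 0.11 (adjusted p = 0.774 and 0.915), where Mmp14, a membrane protease that activates Mmp2, was the only gene of the lists that passed (1.43, limma adjusted p = 0.0024). In Marco-IBA+ segments they were 0.19 and -0.13 (adjusted p = 0.989 each).

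The share of all genes that passed between the labels was 0% in Des+, 0.659% in Marco+IBA+, 0% in Marco-IBA+ and 0% in Else segments. At an unadjusted p under 0.05 limma had 37 genes in Des+, 29 in Marco-IBA+ and 140 in Else segments. edgeR called 1, 0 and 0 genes there and DESeq2 0, 0 and 114. Whether the MarcoHi minus MarcoLo difference of a chain differed between the labels was tested as an interaction in the 4 segment types, and none of the 8 passed (limma, adjusted p from 0.961 to 0.998, lowest unadjusted p 0.109). In these interactions 0% of all genes passed in limma in each segment type, with 23 to 38 genes at an unadjusted p under 0.05, while edgeR called 2 genes and DESeq2 1, all in Else segments.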

How the data were processed

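NanoString GeoMx mouse whole transcriptome probes were read from 159 segments of 4 fixed livers. The authors deduplicated reads by molecular identifier to counts, filtered genes and segments, and deposited upper quartile normalised signal values, whose upper quartile stood at 26.074 in each segment. bcl2fastq 2.20.0.422 is named in the submitters' processing notes, and reads were matched to the list of probe barcodes in the GeoMx NGS pipeline. Counts were recovered by dividing the values of a segment by its smallest step, and all 96513 came out whole (relative tolerance 1e-06). Depth ranged from 1065 to 448875 counts per segment.

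Segment type, ROI class, liver and label were taken from the GEO labels. The ROI class of 1 ROI of liver 4 stood only in its titles. Values were averaged within liver, segment type and ROI class, 1 was added, and log2 was taken, so that differences of low genes are understated. limma 3.58.1 (lmFit, eBayes) was fitted to all 607 genes with liver as a block, since a liver is 1 mouse, and without the block for the labels. p-values were adjusted by Benjamini-Hochberg within a comparison, with a threshold of 0.05. Ratios were tested over livers by exact two-sided permutation of signs. edgeR 4.0.16 and DESeq2 1.42.0 on summed recovered counts, a linear mixed model on segments (lme4 1.1.37, lmerTest 3.1.3), other pseudocounts (0 and 5), filters, centring and leaving out each liver were alternatives. The limma fits were also run on simulated data without random spread between livers, which does not test the liver as the replicate. Tables were made in Python 3.11.15 with pandas 2.3.3 and scipy 1.17.1, and the models run in R 4.3.3.

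Col4a1, Col4a2 and the lists (basement membrane, 7 of 34 genes analysed; synthesis and export, 6 of 18; receptors, 4 of 10; breakdown, 3 of 8; 9 other collagens) and markers were chosen with earlier results of these data known. At most 8 genes per comparison were named from the lists, by size among those past the threshold. Portal fibroblasts had 1 of 6 markers analysed (Eln), and hepatocytes and cholangiocytes 0 of 7 and 0 of 5. Eln was 8.32 to 12.3 in Des+, 4.42 to 6.00 in Marco+IBA+, 8.01 to 26.1 in Marco-IBA+ and 5.25 to 6.26 in Else segments. Promoter sequences were RefSeq windows of GRCm38.p6.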

Additional observations from a re-analysis of the deposited data

Results flagged for a closer look

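Of 74 groups of 4 to 10 values, 4 (5.41%) had a highest value set apart from the rest by Dixon's criterion, and chance marks about 1 in 20. All 4 were groups of single segments of a liver, segment type and ROI class. Not all of the 74 were such groups, and the share among these alone was not worked out. Col4a1 was 39.1 in 1 of 5 Marco-IBA+ segments of MarcoHi ROIs in liver 4, with the next at 13.0. Col4a2 was 88.7 in 1 of 6 Des+ segments of MarcoLo ROIs in liver 1, with the next at 41.7. Col4a2 was 21.3 in 1 of 4 Marco+IBA+ segments of MarcoLo ROIs in liver 3, with the next at 13.5, and 26.1 in 1 of 5 Marco-IBA+ segments of MarcoHi ROIs in liver 3, with the next at 13.0. The flagged Marco-IBA+ values stood for 3 counts (Col4a1, liver 4) and 2 counts (Col4a2, liver 3), and the next values for 1 count each. With so few counts the rate given for chance need not hold. The causes were not tested.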

How the results depend on the processing

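The Des+ differences of both chains against the 3 other segment types kept their direction and stayed past the threshold in all 16 alternatives run, and leaving out a liver gave 1.58 to 1.88 for Col4a1 and 1.26 to 1.49 for Col4a2 against Else segments. The MarcoHi minus MarcoLo differences of both chains in Des+ segments kept their sign and missed the threshold in all 15 run. Without liver as a replicate block, Col1a1 (-0.86) and Mmp2 (-0.71) missed the threshold in that comparison, where Mmp2 also missed it without any 1 liver. Among differences between segment types, those of Marco-IBA+ against Marco+IBA+ or Else segments turned or were lost more often than the others. Against Marco+IBA+ segments 12 (Col4a1) and 13 (Col4a2) of 16 alternatives left direction and call unchanged, and against Else segments 11 and 8. Counts in Marco-IBA+ segments were 1 to 7 for Col4a1 and 1 to 6 for Col4a2. The cause of each change below was not tested.

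For Marco+IBA+ minus Marco-IBA+, Col4a1 turned to 0.0913 (median over segments), 0.36 (edgeR), 0.27 (DESeq2) and 0.0415 (mixed model), and Col4a2 to 0.27 (edgeR) and 0.18 (DESeq2). For Marco+IBA+ minus Else, Col4a1 passed with the ROI as a block (0.34), edgeR (0.48), DESeq2 (0.44) and the mixed model (0.35), and Col4a2 turned to -0.0734 when re-centred. For Marco-IBA+ minus Else, Col4a1 missed the threshold with the median (0.29), re-centring (0.32), the ROI block (0.41), edgeR (0.12) and DESeq2 (0.17). Col4a2 missed it with the median (0.39), re-centring (0.33), the ROI block (0.37) and the mixed model (0.11), and turned to -0.10 (edgeR) and -0.0430 (DESeq2).

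For MarcoHi minus MarcoLo, Col4a1 turned to -0.012 in Marco+IBA+ segments (mixed model) and to -0.28 (median), -0.00767 (re-centred), -0.33 (edgeR) and -0.26 (DESeq2) in Marco-IBA+ segments. Col4a2 turned to -0.00287 (median) and -0.00492 (mixed model) in Marco+IBA+ segments, and Col5a2 to -0.0941 (edgeR) in Des+ segments. Between the labels, the median over segments gave -0.12 for Col4a1 and -0.0278 for Col4a2 in Des+ segments, and re-centring -0.00803 for Col4a1 in Marco-IBA+ segments. The Col4a1 interaction in Marco+IBA+ segments turned to 0.12 (edgeR) and 0.0103 (DESeq2). Of the 9 other collagens, 3 were lower in Des+ segments of MarcoHi ROIs with the median, 3 when re-centred and 1 in DESeq2, and the 23 lower genes became 13, 12 and 9.

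Leaving out 1 liver at a time, Col4a1 ranged from -0.14 to 0.34 for MarcoHi minus MarcoLo in Marco+IBA+ segments, from -0.58 to 0.38 for the interaction there, from -0.31 to 0.64 between labels in Des+ segments and from -0.20 to 0.70 between labels in Marco+IBA+ segments, where it passed without liver 2 (0.70, limma adjusted p = 0.024). Col4a2 ranged from -0.65 (past the threshold without liver 3) to -0.26 for Marco+IBA+ minus Marco-IBA+, from 0.32 to 0.81 for Marco-IBA+ minus Else, where it missed the threshold without liver 1 (0.32) or liver 2 (0.36), from -0.0247 to 0.28 for MarcoHi minus MarcoLo in Marco+IBA+ and -0.0891 to 0.0210 in Else segments, and from -0.19 to 0.0350 for the interaction in Else segments. Between labels it ranged from -0.23 to 0.44 in Des+, -0.0935 to 0.32 in Marco+IBA+, -0.63 to 0.38 in Marco-IBA+ and -0.0394 to 0.40 in Else segments. The log2 ratio of Col4a1 over Col4a2, Marco-IBA+ minus Else, ranged from -0.25 to 0.17, an alternative chosen after seeing the data. In Des+ segments of MarcoHi against MarcoLo ROIs, Col1a1 ranged from -1.15 to -0.57, Col1a2 from -1.09 to -0.71, Col3a1 from -1.49 to -0.86, Mmp2 from -0.86 to -0.56 and Col5a2 from -0.26 to 0.43. The lower collagens numbered 0 to 4 of 9, and the lower genes 0 to 15. The ROI class difference of Marco-IBA+ segments averaged over the labels could not be formed without liver 4, the only liver labelled control with both classes there, and livers 1 and 3 alone had differences of 0.89 and 0.42 for Col4a1 and 1.87 and 0.40 for Col4a2. In Else segments, MarcoHi minus MarcoLo without liver as a replicate block gave -0.38 (Col1a1), -0.43 (Col3a1) and -0.22 (Col14a1), all short of the threshold.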
